A study of Caenorhabditis elegans with 12 samples.

Results

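Germline-deficient glp-1(ts) adults were compared on bacteria labelled as carrying skn-1 RNAi and on bacteria with the empty vector, 3 libraries against 3, across all 12595 genes with deposited values. These are 6 of the 12 libraries of the series, and the other 6 are wild type (WT, strain N2) under the same 2 food labels. The glp-1(ts) strain bears the temperature-sensitive bn18ts allele. Its gene encodes a Notch receptor without which germline stem cells stop dividing, so at the 25°C used for all groups the animals keep only a small number of germ cells. Whole day 1 adults were collected, so each library mixes RNA of all tissues, and the L4440 vector group was fed the same bacteria without the skn-1 insert. The sample labels start the feeding at the egg and the study's methods start it at the L1 larva, and the libraries of each group are labelled as 3 biological replicates. The comparison describes which genes differ with the skn-1 RNAi label in animals that lack most of their germline stem cells.

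SKN-1 is the C. elegans counterpart of the mammalian Nrf transcription factors. It is held at a low level by the WD40 repeat protein WDR-23, which marks it for degradation, and it is activated by p38 kinase signalling. In the intestine it drives phase II detoxification genes, among them glutathione S-transferases, which attach glutathione to reactive compounds. A membrane-anchored form of SKN-1 raises the genes for subunits of the proteasome, the protease that degrades ubiquitin-tagged proteins, when proteasome function is impaired. RNAi by feeding lowers an mRNA through double-stranded RNA taken up from the gut, and it usually leaves some of the target's function in place.

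The skn-1 mRNA was not lower in glp-1(ts) with the skn-1 RNAi label. The level of skn-1 (WBGene00004804) was 6.07, 6.17 and 6.23 log2 CPM in the vector libraries and 5.73, 6.60 and 6.08 in the labelled libraries. The ranges overlapped, with 1 labelled library above all vector libraries and another below them. The log2 fold change was -0.02 with a 95% interval from -0.47 to 0.44, and the adjusted p was 0.991. In WT the libraries with the same label had a log2 fold change of -1.67 in skn-1 (95% interval -2.13 to -1.22, adjusted p 0.00782), so the effect in glp-1(ts) was 1.66 higher than that in WT (95% interval 1.01 to 2.30). The unadjusted p of this difference was 8.04e-05, and its adjusted p over all genes was 0.732. Whether the labelled glp-1(ts) libraries received the skn-1 RNAi food could not be settled from these data. They are therefore named by their label throughout, and the comparisons with WT below are between libraries that share a label and may not share a food.

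The gene next to skn-1 fell in the same libraries. csn-5 (WBGene00000817) encodes the subunit of the COP9 signalosome that removes the ubiquitin-like protein NEDD8 from cullins. In WBcel235 it occupies chromosome IV positions 5649533 to 5651079 on the plus strand, and skn-1 lies from 5651039 to 5660384 on the minus strand, so that their annotated ends share 41 bases. csn-5 was at 3.81, 3.79 and 3.86 log2 CPM on vector and at 2.84, 2.45 and 2.35 in the labelled libraries. The vector libraries lay within a narrow range and all 3 labelled libraries were below it. The log2 fold change was -1.28 (SE 0.16, adjusted p 0.00382), and it was -0.21 in WT (adjusted p 1). The difference of the effects was -1.06 with an unadjusted p of 0.00033 and an adjusted p of 0.732. No strand setting for the counting is given in the sources used here, so reads from the shared bases cannot be told apart, and the relation of the fall in csn-5 to the food was not tested.

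**Figure D1:**
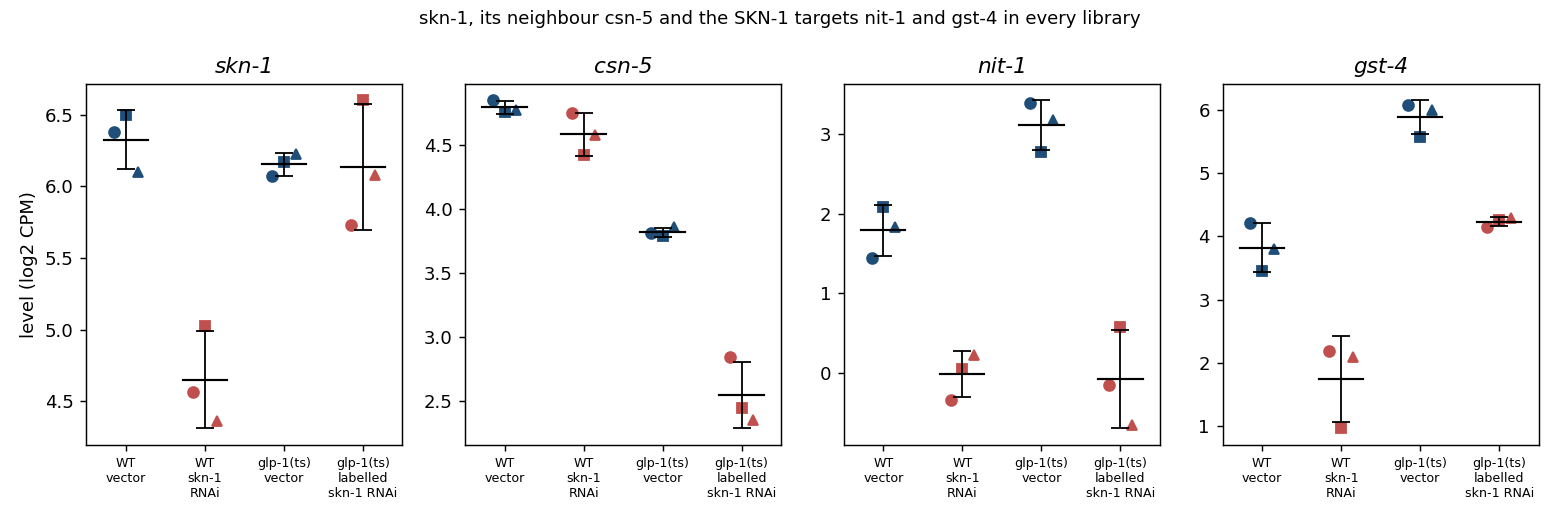
Levels in log2 CPM of skn-1, csn-5, nit-1 and gst-4 in each library of the 4 groups. Circles, squares and triangles are replicates 1, 2 and 3, lines and bars are the mean ± SD (n = 3), and each panel has its own axis. In glp-1(ts), skn-1 overlaps between the groups, while csn-5, nit-1 and gst-4 are lower in every labelled library than in every vector library.

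Another feature of the libraries touches the results. The mean of 25 germline genes was 3.04, 3.21 and 4.17 log2 CPM in the vector libraries and 2.95, 2.94 and 3.21 in the labelled libraries, so vector replicate 3 stood above the other 5. The difference between the groups was -0.44, with an exact two-sided permutation p of 0.2 where 0.1 is the smallest that 3 libraries against 3 allow, and it was -0.09 without vector replicate 3. This permutation does not use the replicate numbers, and within pairs the labelled library was lower in all 3, with differences of -0.09, -0.27 and -0.96. Of these germline genes 24 of 25 had a negative log2 fold change with a median of -0.41, which became -0.07 without that library, and none was called. The summed level of the list ran from 403 to 894 CPM on vector and from 395 to 450 CPM in the labelled libraries. Its member with the lowest mean level, syp-3 of the synaptonemal complex, was at 1.05 CPM. A list of 13 eggshell and oocyte genes showed the same library, with 5.83, 5.84 and 6.70 log2 CPM on vector against 5.73, 5.56 and 5.90. In bulk RNA, fewer cells of a type and less RNA per cell cannot be told apart.

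Somatic marker lists were also compared. Muscle genes were 0.17 higher and pharynx genes 0.23 higher in mean log2 CPM in the labelled libraries, with groups that did not overlap and an exact permutation p of 0.1, the smallest possible. All 14 muscle genes had a positive log2 fold change, from 0.03 to 0.40, and none was called. Intestine genes differed by 0.08, neuron genes by 0.26 and hypodermis genes by -0.05, with exact permutation p-values of 0.3, 0.2 and 0.8. Within pairs of the same replicate number, intestine genes were 0.05, 0.10 and 0.09 higher and neuron genes 0.09, 0.22 and 0.48 higher. Hypodermis genes went both ways within pairs, with differences of 0.22, -0.58 and 0.20. The somatic gonad and vulva list differed by -0.14 (exact permutation p 0.5), and by -0.16 without vector replicate 3. Its differences within pairs were 0.06, -0.12 and -0.34. Without vector replicate 3 the muscle, pharynx and neuron differences were 0.20, 0.28 and 0.20, larger in size than those of the germline and of the eggshell and oocyte lists, at -0.09 and -0.10. The 7 reference genes differed by less than 0.01. The summed level of the intestine markers ran from 3925 to 4439 CPM on vector and from 3721 to 4794 CPM in the labelled libraries.

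**Figure D2:**
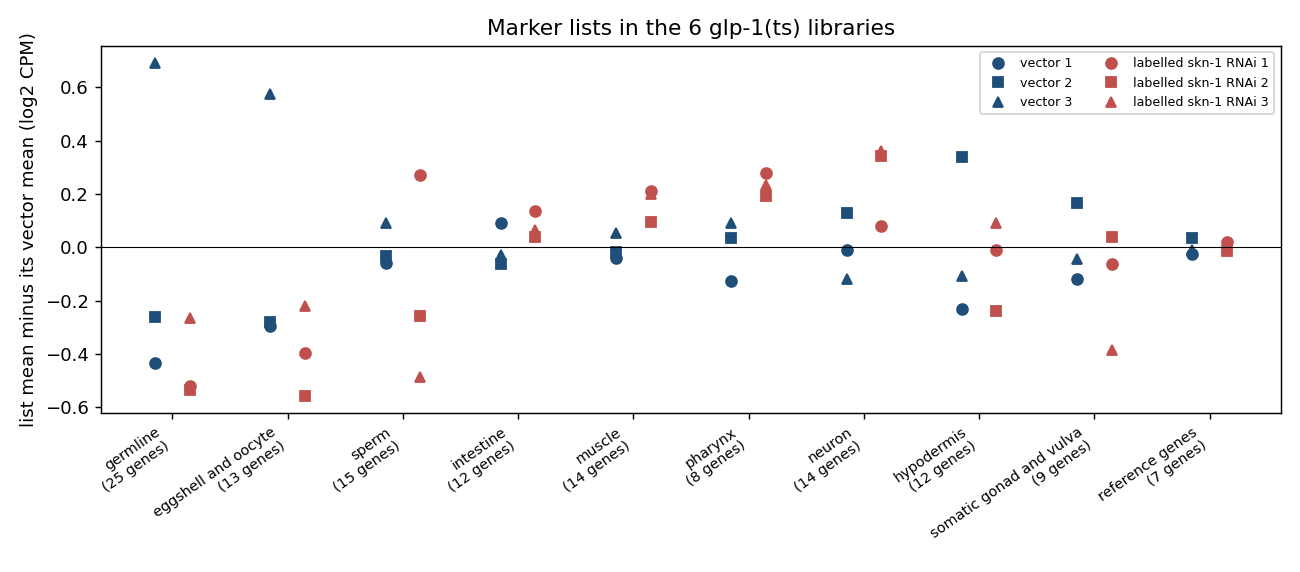
Mean log2 CPM of each marker list in the 6 glp-1(ts) libraries, drawn relative to the mean of the 3 vector libraries. Vector replicate 3 is the highest point of the germline and the eggshell and oocyte lists, and muscle and pharynx are higher in all 3 labelled libraries than in all 3 vector libraries.

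Across all genes, 38 were called lower (0.302%) and 7 higher (0.0556%) in the labelled libraries by limma with a Benjamini-Hochberg adjusted p under 0.05. Of the lower genes, 10 encode proteasome subunits and 4 are on a list of SKN-1 detoxification targets, among them the nitrilase gene nit-1. The changes of the lower genes ran from 0.64 to 5.02 in size on the log2 scale, 22 of them past 2-fold and 4 past 16-fold. All 7 higher genes changed by more than 2-fold and 1 by more than 16-fold. The groups did not overlap for any of the 45, where 8.29% of all genes did not overlap in the higher direction and 6.34% in the lower direction. Without adjustment, 519 genes were higher (4.12%) and 799 lower (6.34%) at p under 0.05. The study's own cutoff, a fold change under 0.67 with an unadjusted p under 0.05, took 559 genes (4.44%) in this fit. The inverse fold took 326 (2.59%). This fit lacks the authors' voom weights, so these counts are not those the study reports.

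Replicates with the same number deviated together, and with the replicate number as a block within strain 160 genes were called lower (1.27%) and 38 higher (0.302%), including all 45. Without vector replicate 3, 13 genes were called lower (0.103%) and 4 higher (0.0318%), and 12 of the 45 were among them. These were nit-1, gst-16, asp-14, C32H11.4, csn-5, C18E3.5, dod-24, rpn-12, F55G1.9, ppw-1, clec-166 and math-34. The log2 fold changes of the called genes hardly moved: their size without that library was between 0.79 and 1.13 times the size with it. Every direction was kept, which was fixed in advance, because the groups of all 45 did not overlap. Vector replicate 3 was the highest vector library for 22 of the 38 lower genes (57.9%) and for 36.4% of all genes. It was the lowest vector library for 5 of the 7 higher genes (71.4%) and for 35.6% of all genes. With the germline list mean of each library as a covariate, 9 of the 45 were called, again with every direction kept.

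**Figure D3:**
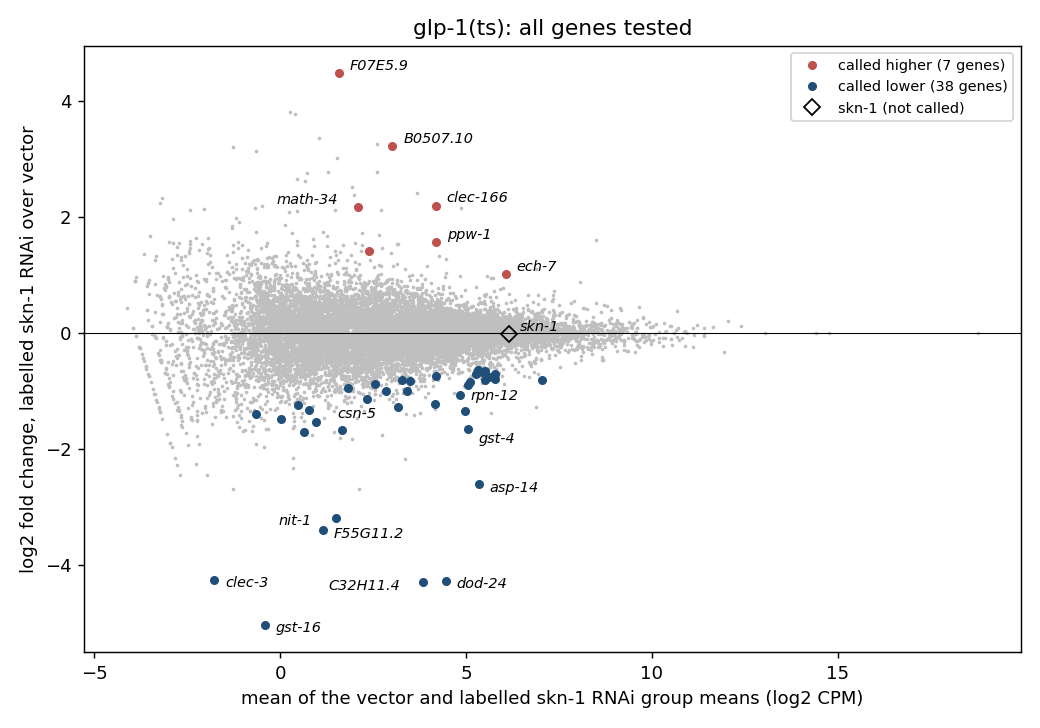
Log2 fold change of the labelled skn-1 RNAi libraries over vector in glp-1(ts) against the mean level of the groups in log2 CPM, 1 point per gene for 12595 genes. Filled points are the 38 genes called lower and the 7 called higher, and the open diamond is skn-1, which lies at a fold change of -0.02.

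The detoxification genes held the smallest p-value of the comparison. nit-1 (WBGene00014206, chromosome III 3922207 to 3923873), a nitrilase gene used as a SKN-1 target, was at 3.39, 2.77 and 3.17 log2 CPM on vector and at -0.15, 0.57 and -0.66 in the labelled libraries. Every labelled library was far below every vector library. The labelled libraries lay near 1 CPM, where values depend on few reads and the number of reads is unknown. The log2 fold change was -3.19 (SE 0.34), a 9.11-fold lower level, with an adjusted p of 0.00341. In WT it was -1.80 (adjusted p 0.0582), and the difference of -1.38 had an unadjusted p of 0.0126 and an adjusted p of 0.832.

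gst-16 (chromosome II), a glutathione S-transferase gene, had the largest decrease of any called gene. It was at 2.87, 1.36 and 2.06 log2 CPM on vector and at -1.92, -4.21 and -2.65 in the labelled libraries, a log2 fold change of -5.02 (SE 0.60, adjusted p 0.00382). The labelled libraries were below 1 CPM, where values depend on few reads and the number of reads is unknown. gst-4, the glutathione S-transferase gene most used as a reporter of SKN-1 activity, was at 6.08, 5.58 and 5.99 on vector and at 4.15, 4.25 and 4.29 in the labelled libraries, which lay close together. The log2 fold change was -1.65 (SE 0.29, adjusted p 0.0324), and gst-4 shares 645 annotated bases with dhs-12. gst-13 was at 5.90, 5.26 and 5.79 on vector and at 4.70, 4.12 and 4.07 in the labelled libraries, a log2 fold change of -1.35 (SE 0.25, adjusted p 0.0438). Without vector replicate 3 gst-4 had a log2 fold change of -1.60 (adjusted p 0.0938) and gst-13 one of -1.28 (adjusted p 0.127).

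Of 26 measured members of a list of SKN-1 detoxification targets, these 4 were called lower, where 0.302% of all genes were, and none higher. Some of its members are also in gene sets the study drew from these samples, so the list is not independent evidence of its direction. The list had 22 members with a negative and 4 with a positive log2 fold change, and its median was -0.40 against 0.01 over all genes tested. Groups did not overlap in the lower direction for 11 of the 26, as for 6.34% of all genes. The median stayed at -0.40 without vector replicate 3, when 2 members were called. With the replicate block 6 were called, the added ones being gst-7 and gsr-1. gst-7 had a log2 fold change of -0.88 (adjusted p 0.106, and 0.00417 with the block). gsr-1, glutathione reductase, which regenerates reduced glutathione, was at 6.77, 6.54 and 6.65 on vector and 6.25, 6.11 and 6.17 in the labelled libraries, a log2 fold change of -0.48 (adjusted p 0.0767, and 0.0255 with the block). gcs-1, which makes the rate-limiting enzyme of glutathione synthesis and is a classic SKN-1 target, was at 5.99, 5.95 and 5.91 against 5.29, 5.46 and 5.52, a log2 fold change of -0.52 that was not called (adjusted p 0.291, and 0.0799 with the block). These 3 genes did not overlap between the groups.

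Over the whole glutathione S-transferase family, the 3 genes named were called lower of 32 measured members, where 0.302% of all genes were. The other 29 were not called. Of the 32, 21 had a negative log2 fold change, and the family median was -0.12. Among 56 UDP-glucuronosyltransferases, which attach glucuronic acid to substrates, and 57 cytochromes P450, none was called, and the medians were -0.05 and 0.10. ugt-44, with a log2 fold change of -0.57, was called only with the block (adjusted p 0.203, and 0.0257 with it). Superoxide dismutases, catalases and metallothioneins had a median of 0.10 over 9 genes with none called.

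Of the lists and families examined, the proteasome held the most called genes. All 32 measured subunits, 14 of the 20S core and 18 of the 19S cap, had a negative log2 fold change, from -0.34 to -1.06, with a median of -0.63, that is 1.55-fold lower. Each was lower in the labelled library than in the vector library of the same number in all 3 pairs, with median differences of -0.64, -0.48 and -0.80. Groups did not overlap for 31 of 32, where 6.34% of all genes did not in the lower direction, and all 32 had an unadjusted p under 0.05, as had 6.34% of all genes in that direction. Called lower were 10 subunits, 5 in the core and 5 in the cap, against 0.302% of all genes, and 24 with the replicate block, against 1.27%.

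The mean level of the core subunits was 5.96, 5.59 and 5.93 log2 CPM on vector and 5.23, 5.12 and 5.17 in the labelled libraries. The subunits with the smallest p-values were in the cap, which recognises and unfolds substrates. rpn-12 was at 5.50, 5.01 and 5.59 on vector and at 4.32, 4.16 and 4.43 in the labelled libraries, a log2 fold change of -1.06 (SE 0.16, adjusted p 0.0141). rpn-3 was at 6.18, 5.99 and 6.37 against 5.40, 5.30 and 5.49 (adjusted p 0.0198). Both encode subunits of the lid of the cap, as does rpn-7 with a log2 fold change of -0.76 (adjusted p 0.0449). rpt-2, an ATPase of the base, changed by -0.70, and C56G2.7, which the current annotation names rpn-13 and which binds ubiquitin, by -0.64 (both adjusted p 0.0438).

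In the core, the called subunits were the alpha ring genes pas-4 and pas-7 and the beta ring genes pbs-2, pbs-4 and pbs-6. pas-4 was at 5.64, 5.19 and 5.69 on vector and 4.73, 4.44 and 4.65 in the labelled libraries, a log2 fold change of -0.90 (SE 0.17, adjusted p 0.0438). pbs-6 changed by -0.84, pbs-4 by -0.81, pas-7 by -0.71 and pbs-2 by -0.67, with adjusted p-values between 0.0438 and 0.0456. pbs-5, which encodes a catalytic subunit, changed by -0.55 and was not called (adjusted p 0.0614, and 0.0129 with the block). rpn-6.1, a lid subunit that the study names, was at 5.88, 5.80 and 6.15 against 5.46, 5.53 and 5.53 and was not called, with a log2 fold change of -0.44 (adjusted p 0.242, and 0.0825 with the block).

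Most proteasome calls lay close to the threshold. Without vector replicate 3 all 32 subunits stayed below 0 with a median of -0.57, and 1 was called, rpn-12 at an adjusted p of 0.0491. In WT all 32 were below 0 as well with a median of -0.44, and none was called. The difference between the strains was below 0 for 27 of 32, with unadjusted p under 0.05 for 4 and none past adjustment. On vector all 32 subunits were lower in glp-1(ts) than in WT, with a median difference of -0.97, in a comparison that uses the same vector libraries. Outside the list, ubxn-1, a UBX-domain partner of the segregase CDC-48, was at 7.43, 7.26 and 7.63 on vector and at 6.53, 6.67 and 6.70 in the labelled libraries, a log2 fold change of -0.81 (SE 0.13, adjusted p 0.0258, and 0.083 without vector replicate 3). Picked after their values were seen, cdc-48.1 and cdc-48.2 themselves had log2 fold changes of -0.70 and -0.57, and the proteasome-bound deubiquitinases ubh-4 and usp-14 of -0.65 and -0.50. These 4 genes were called with the replicate block and not without it.

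**Figure D4:**
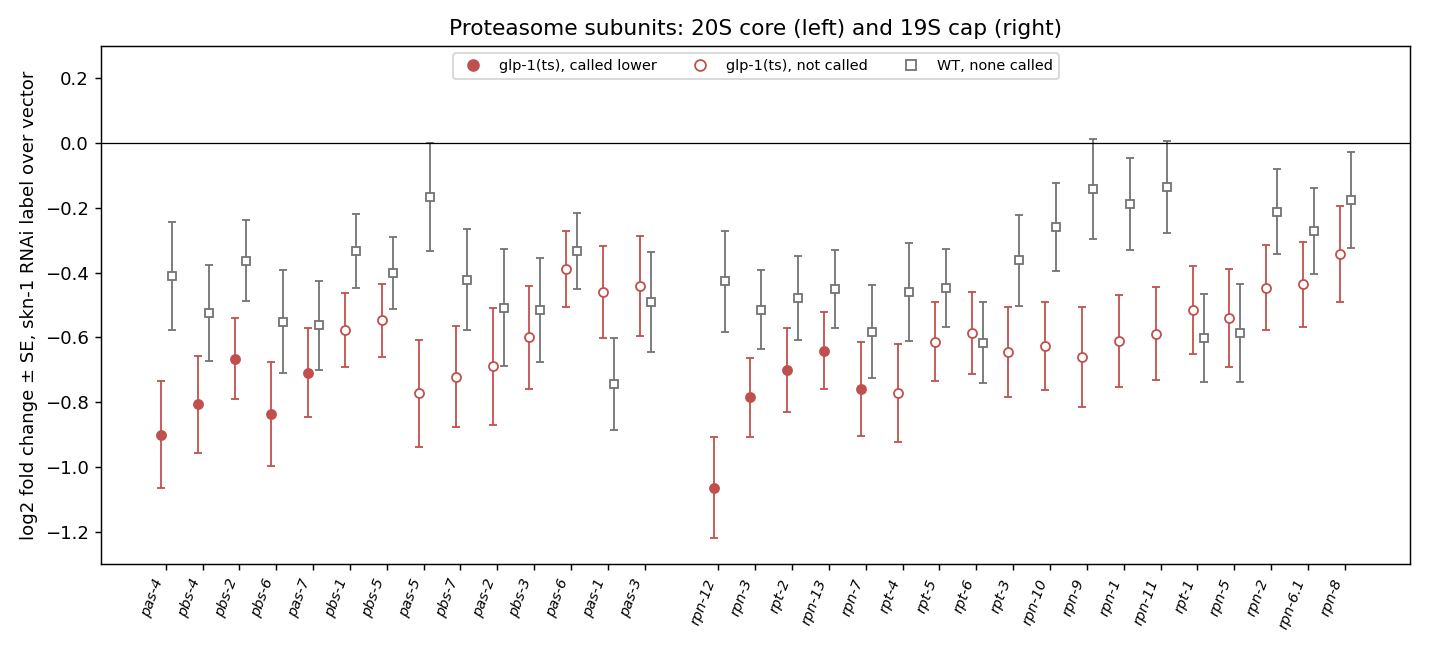
Log2 fold change of the skn-1 RNAi label over vector with its standard error for 14 core and 18 cap subunits, ordered by p-value within each. Circles are glp-1(ts), filled for the 10 called subunits, and grey squares are WT, where none was called. Every point lies below 0, and the median is -0.63 in glp-1(ts) and -0.44 in WT.

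Other lists of protein quality control held no called gene, where 0.302% of all genes were called lower and 0.0556% higher. The cytosolic chaperonin CCT had a median of -0.08 over 8 subunits, heat shock and HSP90 chaperones one of -0.14 over 14 genes, the endoplasmic reticulum stress list one of -0.14 over 16 genes, and the mitochondrial stress list one of -0.07 over 11 genes. Cytosolic ribosomal proteins had a median of -0.01 over 80 genes, and none had an unadjusted p under 0.05. Of 66 mitochondrial ribosomal proteins 55 were below 0, with a median of -0.19, and 16 were lower at an unadjusted p under 0.05, as were 6.34% of all genes. Of these, mrpl-9, a protein of the large mitochondrial ribosomal subunit, was called, at 4.06, 3.78 and 3.87 on vector and 2.68, 3.09 and 2.93 in the labelled libraries (log2 fold change -1.0, SE 0.18, adjusted p 0.0411). The median of the list was -0.20 without vector replicate 3 and 0.07 in WT.

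asp-14, dod-24, C32H11.4 and F55G11.2 were among the genes with the largest decreases. asp-14, an aspartyl protease gene on chromosome X, was at 6.71, 6.40 and 6.83 on vector and 3.45, 4.42 and 4.25 in the labelled libraries. Its log2 fold change was -2.61 (SE 0.31, adjusted p 0.00382), a 6.09-fold lower level. It was the only called gene on the X chromosome, and its change in WT was -2.79 (adjusted p 0.00544).

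dod-24 and C32H11.4 are neighbours on chromosome IV, with 16810 bases between them, and encode CUB-like proteins of a family that responds to pathogens and to DAF-16. C32H11.4 was at 6.12, 5.73 and 6.09 on vector and at 0.88, 2.13 and 2.05 in the labelled libraries, a log2 fold change of -4.30 (SE 0.53, adjusted p 0.00382). dod-24 was at 6.93, 6.48 and 6.35 against 0.73, 2.26 and 3.96, a log2 fold change of -4.27 (SE 0.61, adjusted p 0.0124). The labelled libraries of dod-24 differed widely and still did not reach the lowest vector library.

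F55G11.2 lies in the same region of chromosome IV. It was at 3.39, 3.00 and 2.18 on vector and at -1.34, 0.65 and -0.94 in the labelled libraries (log2 fold change -3.40, SE 0.59, adjusted p 0.0324). Its labelled libraries lay near or below 1 CPM. dod-17, named like dod-24 for its place downstream of DAF-16, was at 5.28, 5.39 and 2.69 on vector and at 2.62, 2.57 and 1.66 in the labelled libraries, and its log2 fold change of -2.17 was not called (adjusted p 0.259), while the block, which compares within numbers, gave an adjusted p of 0.0096. Of 11 measured CUB-like and dod genes in the list, dod-24 was called and 9 were below 0, with a median of -0.77.

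C-type lectins, secreted or membrane proteins with carbohydrate-binding folds, went both ways. clec-3 was at -0.66, 1.08 and 0.63 on vector and at -3.29, -4.21 and -4.21 in the labelled libraries (log2 fold change -4.26, SE 0.81, adjusted p 0.0449). All 6 values are low on this scale. clec-166 rose, from 3.06, 2.56 and 3.64 to 5.22, 5.19 and 5.42 (log2 fold change 2.19, SE 0.33, adjusted p 0.0159). clec-10 had a log2 fold change of 1.33 and was not called (adjusted p 0.066, and 0.0102 with the block). Over the 91 measured lectins the median was 0.11. The histidine acid phosphatase gene pho-9 was called lower, with a log2 fold change of -1.67 (SE 0.32, adjusted p 0.0449), and the whole of its annotation lies within that of Y71H2AM.5 on the other strand.

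Levels on vector were also set against those of WT for the 38 lower genes. Of the 28 outside the proteasome, glp-1(ts) had a level called lower than WT for 15 (53.6%) and higher for 9, where 38% and 39.4% of all genes did, and this comparison shares the glp-1(ts) vector libraries. For 13 of these 15, the log2 fold change with the label in WT was within 0.3 of 0 on the log2 scale. This group was picked after its values were seen and has no test. Its median level was 4.37 log2 CPM in WT on vector, 4.58 in WT on skn-1 RNAi, 2.31 in glp-1(ts) on vector and 1.36 in the labelled libraries. Its log2 fold changes in glp-1(ts) ran from -0.81 to -1.70 with a median of -1.24, and the median without vector replicate 3 was -1.13. Vector replicate 3 was the highest vector library for 9 of the 13, and 3 stayed called without it.

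C18E3.5, which the current annotation names snrp-40.2, had the smallest p-value of this group after csn-5. It was at 1.40, 1.41 and 1.69 on vector and at -0.66, -0.07 and 0.12 in the labelled libraries (log2 fold change -1.70, SE 0.22, adjusted p 0.00528, and 0.0229 without vector replicate 3). In WT its change was -0.08, and its labelled glp-1(ts) libraries lay near or below 1 CPM. C27H6.3, now named tofu-1, and K06A5.1, now named uad-2, are genes that act in the production of piRNAs, the small RNAs that guard the germline. tofu-1 was at 2.05, 1.46 and 1.69 against -0.38, 0.57 and 0.39 (log2 fold change of C27H6.3 -1.54, adjusted p 0.0222), and uad-2 at 3.01, 2.96 and 2.98 against 1.91, 2.08 and 2.31 (log2 fold change of K06A5.1 -0.88, adjusted p 0.0449). In WT their effects were 0.21 and 0.09. K06A5.1 shares 2897 annotated bases with nmtn-1 on the other strand.

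orc-3, a subunit of the origin recognition complex that starts DNA replication, was at 2.31, 2.24 and 2.38 on vector and 1.23, 1.32 and 1.54 in the labelled libraries (log2 fold change -0.95, SE 0.17, adjusted p 0.0384). swd-2.2, a WD-repeat gene, was at 2.75, 2.85 and 3.09 against 1.46, 1.73 and 2.09 (log2 fold change -1.14, SE 0.19, adjusted p 0.0248). F55G1.9, now named pycr-4, was at 3.56, 3.42 and 3.11 against 2.42, 2.45 and 2.22 (log2 fold change -1.0, SE 0.17, adjusted p 0.0257), and vector replicate 3 was here the lowest vector library. The F-box gene fbxa-210, with a log2 fold change of -1.33 (adjusted p 0.0324), belongs to the same group, as do Y102E9.2 (-0.82), now named wdr-4, F25H2.12 (-1.24), W02D9.4 (-1.40), F57C9.4 (-0.81) and C50E3.13 (-1.47). F25H2.12 shares 571 annotated bases with tct-1, and no role is given here for genes without a name. Germline markers themselves were not called, as given above. Of the named germline markers, deps-1, which organises P granules, was at 3.65, 3.34 and 4.46 against 2.22, 3.15 and 3.00 and had a log2 fold change of -1.03 (adjusted p 0.195, and 0.0455 with the block). glp-1 itself was at 4.68, 4.80 and 5.44 against 4.88, 4.56 and 4.81 (log2 fold change -0.22, adjusted p 0.764).

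The other 3 lower genes were F39B2.3 (log2 fold change -1.22, adjusted p 0.0314), K05C4.2 (-0.66) and Y57E12AL.6 (-0.74). F39B2.3 was at 4.70, 4.41 and 5.21 on vector and 3.21, 3.74 and 3.71 in the labelled libraries, and its change in WT was -0.35.

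The 7 higher genes had less in common. ppw-1 (chromosome I 4185174 to 4189956), an Argonaute gene that germline RNAi requires, had the smallest p-value among them. It was at 3.60, 3.45 and 3.20 on vector and at 5.32, 4.45 and 5.17 in the labelled libraries, a log2 fold change of 1.57 (SE 0.21, adjusted p 0.00528), or 2.96-fold higher. In WT its effect was 0.26. It lies 3285 bases from C18E3.5, one of the genes that fell. Of 30 other measured genes of the RNAi machinery none was called, where 0.302% of all genes were called lower and 0.0556% higher. rrf-2, an RNA-dependent RNA polymerase gene, was at 3.90, 4.47 and 3.47 against 4.77, 5.01 and 5.14 (log2 fold change 1.03, adjusted p 0.0998, and 0.0356 with the block). The Argonaute gene C04F12.1, now named vsra-1, was at 6.01, 5.95 and 5.54 against 6.55, 6.35 and 6.60 (log2 fold change 0.67, adjusted p 0.0752, and 0.0466 with the block). The list's median was -0.02, with 17 members below 0.

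math-34, of the MATH domain family, was at 1.21, 1.59 and 0.22 on vector and at 3.52, 2.96 and 3.06 in the labelled libraries (log2 fold change 2.17, SE 0.33, adjusted p 0.0159). Of the 72 measured MATH and BTB genes it was the only one called, where 0.0556% of all genes were called higher. math-38 had a log2 fold change of 2.42 that was not called (adjusted p 0.1), and in WT it rose by 3.61 (adjusted p 0.02). ech-7, an enoyl-CoA hydratase gene of fatty acid beta-oxidation, was at 5.77, 5.38 and 5.53 on vector and 6.62, 6.35 and 6.75 in the labelled libraries (log2 fold change 1.01, SE 0.18, adjusted p 0.0324).

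The largest increase was in F07E5.9, a gene with no given role, at 0.22, 0.08 and -2.27 on vector and 3.70, 3.72 and 4.03 in the labelled libraries (log2 fold change 4.47, SE 0.85, adjusted p 0.0449). Vector replicate 3 was far below the others, and without it the log2 fold change was 3.67 (adjusted p 0.134). All vector libraries of F07E5.9 lay near or below 1 CPM. B0507.10, now named ddn-1, was at 0.96, 2.56 and 0.72 against 4.73, 4.24 and 4.92 (log2 fold change 3.22, SE 0.52, adjusted p 0.0239). Y111B2A.2 was at 1.50, 2.11 and 1.47 against 3.25, 3.43 and 2.65 (log2 fold change 1.42, SE 0.24, adjusted p 0.0315). Below the threshold came K10G4.13 (log2 fold change 2.62, adjusted p 0.0595), annotated as a pseudogene, Y57G11B.1 (3.80, adjusted p 0.0723), now named pals-30, and fmo-2 (3.01, adjusted p 0.0645). fmo-2 encodes a flavin-containing monooxygenase that is induced by hypoxia and fasting. It was at -0.02, -0.26 and 0.35 on vector and at 1.46, 4.49 and 3.15 in the labelled libraries, which did not overlap with vector but differed widely among themselves. With the replicate block all 3 were called, with adjusted p-values of 0.0303 for K10G4.13, 0.0356 for Y57G11B.1 and 0.0387 for fmo-2.

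**Figure D5:**
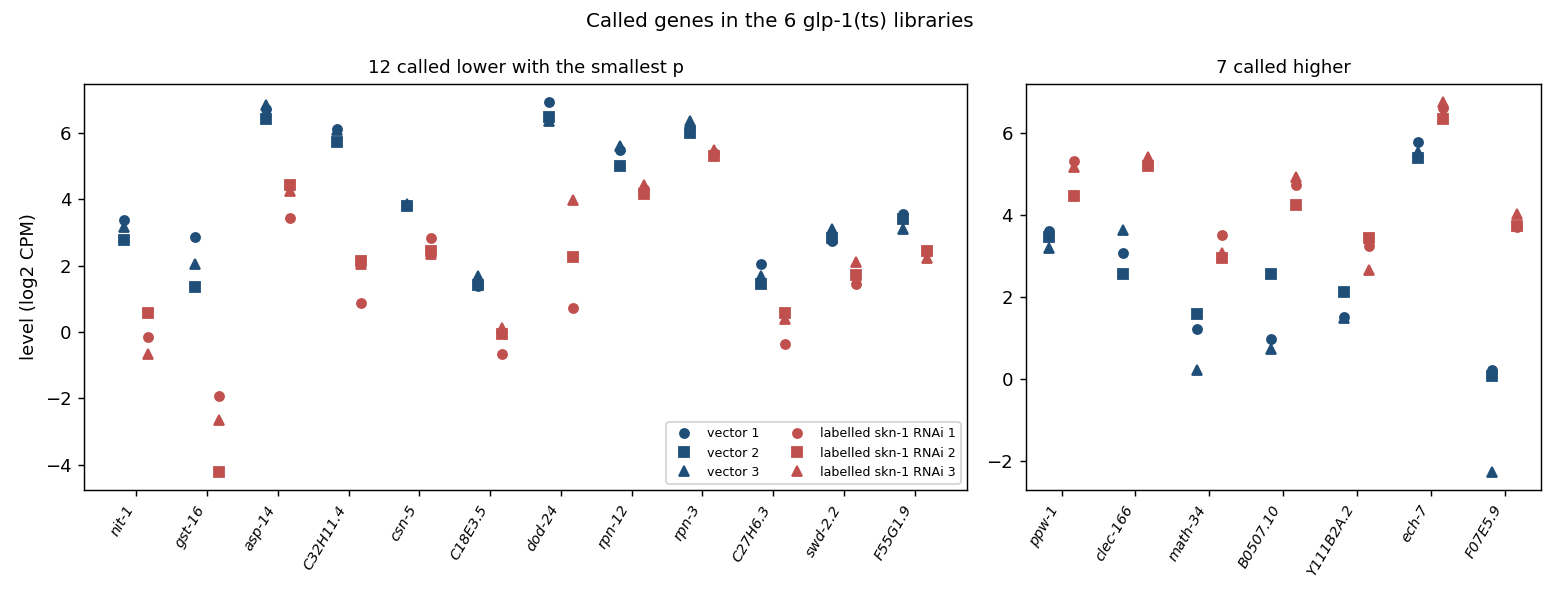
Levels in log2 CPM of called genes in the 6 glp-1(ts) libraries, with the 12 lower genes of smallest p on the left and the 7 higher genes on the right. Blue is vector and red is labelled skn-1 RNAi, and circles, squares and triangles are replicates 1, 2 and 3. In no gene shown do the colours overlap. The spread within a group is widest for dod-24, from 0.73 to 3.96 in the labelled libraries.

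Lipid genes, which the study follows in germline-deficient animals, were mostly not called by adjusted p, at which 0.302% of all genes were lower and 0.0556% higher. Of the genes the study names, the lysosomal lipase lipl-3 was at 3.12, 2.92 and 2.41 on vector and at 2.62, 1.16 and 0.25 in the labelled libraries, which overlapped (log2 fold change -1.47, SE 0.55, adjusted p 0.363). The lipid chaperone gene lbp-8 was at 0.77, -0.15 and 1.58 against -0.96, -0.96 and 0.61 (adjusted p 0.644). The carnitine palmitoyltransferase gene cpt-3 was at 4.46, 4.78 and 3.65 against 3.76, 3.86 and 1.05, where labelled replicate 3 was far below the rest (log2 fold change -1.41, adjusted p 0.433). ech-9 was at 3.75, 4.88 and 2.26 against 1.65, 4.01 and 2.65, a wider spread within each group than between them. The log2 fold changes of acs-10, an acyl-CoA synthetase gene, dhs-3, a lipid droplet dehydrogenase gene, and sbp-1, the SREBP homologue, were -0.84, -0.21 and -0.11, with adjusted p-values from 0.781 to 0.838. By the study's cutoff, a fold change under 0.67 with an unadjusted limma p under 0.05, lipl-3 and cpt-3 counted as lower in this fit. The other genes named in this paragraph so far did not. The study's set of genes raised without germline stem cells and dependent on skn-1 holds acs-10 and ech-9 as well as lipl-3 and cpt-3. That set used the fold cutoff of 0.67 with another statistic, from the authors' own fit. Over 28 lipases and fatty acid transport genes the median was 0.12, over 18 desaturases and elongases 0.02 and over 36 beta-oxidation enzymes 0.04, with ech-7 as the one call.

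In all, 50 of the 61 lists and families examined held no called gene. As 0.302% of all genes were called lower and 0.0556% higher, a list without a call does not show that its genes were unaffected. Among them were yolk proteins, DAF-16 targets, autophagy genes, germline longevity regulators, 100 col- collagens and 169 nuclear hormone receptors. Of the 6 yolk genes, vit-2, vit-5 and vit-6 each had a single value in all 6 glp-1(ts) libraries, so no change in these 3 could be seen. The list of SKN-1 and its regulators had a median of 0.01 over 29 genes, and its smallest p-value belonged to hcf-1, a nuclear cofactor that limits SKN-1 and DAF-16, with a log2 fold change of -0.45 (adjusted p 0.375). Neuropeptide genes were above 0 for 82 of 102 with a median of 0.23, and the neuron markers stood 0.26 higher as given above. Basement membrane genes were above 0 for 21 of 24 with a median of 0.17, beside the muscle markers that were 0.17 higher. None of these was called.

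The comparison under the same label in WT rests on different libraries, and, as given above, the food in the labelled glp-1(ts) libraries is not settled. In WT 12 genes were called lower (0.0953%) and 10 higher (0.0794%), and 7 genes were called in the same direction in both strains, which is 15.6% of the glp-1(ts) calls and 31.8% of the WT calls. These were gst-4, gst-13, C32H11.4, dod-24 and asp-14 among the lower genes and B0507.10 and F07E5.9 among the higher. gst-4 changed by -1.65 in glp-1(ts) and -2.08 in WT, gst-13 by -1.35 and -1.50, dod-24 by -4.27 and -5.04, and F07E5.9 by 4.47 and 4.86. Of the 38 genes lower in glp-1(ts), 29 were below 0 in WT, and all 7 higher genes were above 0.

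No gene was called for a difference between the strains in the effect of the label (smallest adjusted p 0.732 by limma). At an unadjusted p under 0.05, 382 genes had the lower effect in glp-1(ts) (3.03%) and 363 the higher (2.88%). Among the genes called in glp-1(ts), 19 of the 38 lower and 4 of the 7 higher had such an unadjusted p, but they were chosen for a large effect in glp-1(ts), so this count is a description. After skn-1, the smallest p-values belonged to C18E3.5 (difference -1.62, p 0.000156), C27H6.3 (-1.75, p 0.00019), pqn-73 (4.30, p 0.000307) and csn-5 (-1.06, p 0.00033), as unadjusted p from limma. pqn-73, a gene with a glutamine- and asparagine-rich product, was low in all 6 glp-1(ts) libraries, between -2.65 and -1.34 log2 CPM. It had a log2 fold change of -4.60 in WT (adjusted p 0.0127) and -0.30 in glp-1(ts).

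The libraries of each group correlated across genes with Pearson's r from 0.95 to 0.97 on vector and from 0.967 to 0.971 with the label, as a description over genes that are not independent. The depth behind the values is unknown. Quantile normalization made the distributions nearly equal, with CPM sums between 980316 and 980342 per library. The median log2 fold change over all genes was 0.01, with quartiles at -0.22 and 0.22.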

How the data were processed

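Poly(A) RNA was sequenced from 12 libraries of whole animals. The authors mapped single 50 bp reads with STAR (build WBcel235), obtained gene counts from featureCounts of the Subread package, kept genes that reached 1 CPM in 2 or more samples, and applied limma's voom, with quantiles equalised between libraries. The deposited values are the authors' log2 CPM, and their table of group averages and comparisons (fold changes and p-values) was not used. The deposited table of replicate values repeats the sample files. No other columns of samples were left out. Read counts and strand settings are not given in the sources used here, so depth is unknown and no counting interval is given.

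The deposited log2 CPM of all 12 libraries entered 1 group-means model in limma 3.58.1 (R 4.3.3), with empirical Bayes and a variance trend, 8 residual and 13.57 total degrees of freedom, no pseudocount, no further filter and no block. A gene was called where its Benjamini-Hochberg adjusted p over 12595 genes was under 0.05. Fold changes are on the log2 CPM scale. Means of marker lists were compared by exact two-sided permutation of 3 libraries against 3, with a smallest p of 0.1. The fit was tested on simulated data. Coordinates, overlaps and current names are from the Ensembl release 115 annotation of WBcel235, the build the authors used, which holds 12485 of the gene IDs. Figures were drawn with matplotlib 3.10.9.

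Replicate numbers were read as pairs only where pairs or a block are given. The main fit used no block, so its p-values ignore the pairing. The reading rests on residuals of same-numbered vector and labelled libraries, which correlated by 0.149, 0.337 and 0.233 in glp-1(ts). In WT these residuals correlated by 0.106, 0.314 and 0.247. Different numbers gave at most 0.0486. Residuals within a group cancel out, so positive values for the same number push those for different numbers down. The labels say only that replicates are biological, so p-values measure the spread between these samples.

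Genes were named by rule: those the study names and csn-5, the 12 with the smallest p and up to 5 with the largest called change per direction, up to 4 of smallest p per list, and the 5 of smallest p for the difference of effects. The other called genes were also named, as were genes whose choice after their values were seen is stated. Lists were written from general knowledge after the paper had been read, and some members are also among genes the study chose on these samples. The genes, lists and tests were chosen with earlier results of these data known. Alternatives were another or no variance model, filters at means of 1 and 4 CPM, log2(CPM + 1), the replicate block, median centring, the germline list mean as a covariate, only the 6 glp-1(ts) libraries, the study's cutoff, and leaving out each library.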

Additional observations from a re-analysis of the deposited data

Results flagged for a closer look

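Among the genes the study names and csn-5, the neighbour of skn-1, 3 differed between the strains in the effect of the skn-1 RNAi label at an unadjusted p under 0.05, while no gene passed adjustment over all 12595. skn-1 had a difference of effects, glp-1(ts) minus WT, of 1.66 on the log2 scale (unadjusted p 8.04e-05, adjusted p 0.732 by limma). csn-5, which shares 41 bases with skn-1 at their annotated ends, had a difference of -1.06 (unadjusted p 0.00033, adjusted p 0.732). nit-1 had a difference of -1.38 (unadjusted p 0.0126, adjusted p 0.832), and its labelled glp-1(ts) libraries lay near 1 CPM. Groups of 3 libraries are too small for a test of single libraries that lie apart.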

How the results depend on the processing

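Among the alternatives run on the called genes, none changed the direction of any of the 45. Because the groups of all 45 did not overlap, most of these alternatives, leaving out a library among them, could not have changed one. Of the 45, 5 were called in every alternative that kept all libraries and 7 with each library left out in turn. The number of calls was less stable. Without a variance trend 2 genes were called higher and 10 lower, with vooma weights 22 higher, with log2(CPM + 1) 30 higher, and with the germline list mean as a covariate 3 higher and 9 lower, of which 9 were among the 45. With only the 6 glp-1(ts) libraries 12 were higher and 8 lower. With the replicate block, 18 were higher and 81 lower where the number was shared by the strains, and 38 higher and 160 lower where it was paired within a strain, with all 45 kept. In this fit the study's cutoff took 559 lower, and its inverse 326 higher. Both filters and median centring gave 5 to 7 higher calls. The vooma weights, log2(CPM + 1), both filters and median centring gave 34 to 47 lower calls. Leaving out 1 library gave 1 to 11 higher calls (1 without glp-1(ts) vector replicate 1 or labelled replicate 2, 11 without WT skn-1 RNAi replicate 3) and 7 to 56 lower calls (7 without labelled replicate 1, 56 without glp-1(ts) vector replicate 2). For the difference between the strains, log2(CPM + 1) called 1 gene higher and every other alternative none. Across all 271 genes followed, called or not, 5416 values stayed on their side of the threshold, 426 lost and 56 gained a call. Most of these genes were not called and stayed on their side by remaining so. Only the 45 could lose a call, so all 426 losses are theirs. The causes of these shifts were not tested. The germline difference of -0.44 ran from -0.66 to -0.09 with each library left out, and depth, which is unknown, limits what can be said of genes below 1 CPM.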
